A study of Mus musculus with 92 samples.

Results

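The 9 genes described here encode the enzymes that lengthen long-chain fatty acids in the endoplasmic reticulum. They are the elongases Elovl1, Elovl5 and Elovl7, the ketoacyl-CoA reductase Hsd17b12, the hydroxyacyl-CoA dehydratases Hacd1, Hacd2, Hacd3 and Hacd4, and the enoyl-CoA reductase Tecr. They were taken by gene symbol from a table of 13441 genes, and all 9 were present. The table holds sequencing of messenger RNA from the quadriceps of 92 DOz mice, an outbred stock, with 1 library for each animal. Every animal belonged to the same group: lifelong standard chow, an age of about 18 to 20 weeks, and no treatment contrast or engineered allele named in the labels. Sex is not given in the labels used here. The comparisons therefore run across animals, and ask which other genes were higher or lower where a gene of the cycle was high. The study's title concerns very long-chain ceramides in muscle, whose acyl chains this cycle makes.

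Each turn of the cycle adds a 2-carbon unit from malonyl-CoA to an acyl-CoA. An elongase carries out the condensation that sets the pace and chooses the substrate. Elovl1 acts on saturated and monounsaturated very long chains, Elovl5 on polyunsaturated chains, and Elovl7 on saturated chains. Hsd17b12 then reduces the ketone, a dehydratase of the HACD family removes water, and Tecr reduces the remaining double bond. Products of the cycle enter phospholipids, triglycerides and, through the ceramide synthases, sphingolipids. Hacd1 is the dehydratase of striated muscle, and its loss causes a congenital myopathy in dogs.

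Levels below are log2 values on a per-million scale, as deposited. The depth of each library is not given, so precision comes from the spread between animals alone. The defining transcripts of fast muscle were abundant in every animal: 13 fast glycolytic fibre genes summed to between 102349 and 203716 in linear per-million units, with the fast myosin Myh4 at a mean log2 level of 15.90. Other cell types were present in varying amounts, since 10 adipocyte genes summed to 343.1 to 3039 and 10 macrophage genes to 47.6 to 720. Sample titles end in numbers that form 5 runs of 33, 14, 21, 11 and 13 animals. What these numbers stand for is not stated, and none of the 9 genes differed between the runs in limma's F test at an adjusted or unadjusted p of 0.05, against 2 of 13441 genes called and 1120 at an unadjusted p under 0.05.

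A pair of animals stood apart and bear on several results. The former was the highest of all 92 in Elovl5, Hsd17b12 and Hacd2, in fatty acid synthase, Fasn (10.7 against a median of 6.02 on the log2 scale), and in the adipocyte marker score, the mean of the standardised adipocyte genes (2.80 against a median of -0.011). The latter was the highest in Hacd1 and in Hacd4 and the lowest in Tecr, at 5.97, 3.17 and 7.29. Its macrophage score and its score for muscle stem and regenerating cells were the highest of all animals, its fibroblast score ranked 2 from the top, and its fast fibre score was the lowest. Many counts that rest on these animals are given with and without them. The counts over all genes and over all lipid lists for Elovl5, Hsd17b12 and Hacd2 include the former animal. The animals are called the lipogenic-high animal and the Tecr-low animal below, names that describe these values only.

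The sequences directly upstream of 5 of the genes are shown because the data turn on them: Elovl5, Hsd17b12 and Hacd2 varied together, while Hacd1 and Tecr had the highest levels per kilobase. All 9 genes had an entry among the RefSeq promoters of build GRCm38.p6. Each sequence starts 250 bases before the RefSeq start, reads 5′ to 3′ on the gene's strand, and leaves out bases that lie in annotated GENCODE exons. Capitals mark CCAAT, on either strand and hence also written ATTGG, and the E-box CACGTG. The first 3 are Elovl5 at chr9:77917115-77917363 on the plus strand, Hsd17b12 at chr2:94157965-94158159 on the minus strand and Hacd2 at chr16:35022171-35022420 on the plus strand.
Elovl5: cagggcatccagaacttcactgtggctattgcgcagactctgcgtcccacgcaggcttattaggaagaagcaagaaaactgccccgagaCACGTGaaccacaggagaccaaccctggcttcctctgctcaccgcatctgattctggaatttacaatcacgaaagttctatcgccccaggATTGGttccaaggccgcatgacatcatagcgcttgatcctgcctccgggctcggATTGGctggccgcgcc
Hsd17b12: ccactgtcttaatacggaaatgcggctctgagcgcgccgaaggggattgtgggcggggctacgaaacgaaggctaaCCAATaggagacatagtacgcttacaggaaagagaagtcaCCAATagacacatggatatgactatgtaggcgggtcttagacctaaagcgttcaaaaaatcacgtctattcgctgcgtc
Hacd2: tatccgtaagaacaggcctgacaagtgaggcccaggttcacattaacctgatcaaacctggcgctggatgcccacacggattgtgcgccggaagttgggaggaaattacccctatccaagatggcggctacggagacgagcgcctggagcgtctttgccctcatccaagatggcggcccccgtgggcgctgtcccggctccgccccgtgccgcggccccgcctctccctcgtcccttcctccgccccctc
The next pair is Hacd1 at chr2:14056136-14056285 and Tecr at chr8:83594492-83594741, both on the minus strand. The Tecr window lies inside the longer GENCODE gene span, between annotated exons.
Hacd1: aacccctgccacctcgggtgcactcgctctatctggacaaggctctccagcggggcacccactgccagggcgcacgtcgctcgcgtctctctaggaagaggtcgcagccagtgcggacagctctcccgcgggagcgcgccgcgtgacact
Tecr: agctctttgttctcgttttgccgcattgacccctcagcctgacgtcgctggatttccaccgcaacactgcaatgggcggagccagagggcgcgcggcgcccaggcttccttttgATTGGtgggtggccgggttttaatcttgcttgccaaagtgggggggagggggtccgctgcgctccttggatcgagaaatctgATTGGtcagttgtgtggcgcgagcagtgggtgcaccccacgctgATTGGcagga

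Motifs were counted over all 250 bases on both strands. CCAAT occurred 3 times before Tecr, 2 times before Elovl5 and 2 times before Hsd17b12, and in neither the Hacd1 nor the Hacd2 window. It occurred once before Hacd3 and once in 1 of the 2 Elovl1 windows, so 5 of the 9 genes held it, and Elovl7 and Hacd4 did not. Among 32851 promoter windows of the same length, 33.85% held at least 1 CCAAT and 10.1% held at least 2. The E-box CACGTG, present in 6.02% of windows, occurred before Elovl5 and also before Hacd3. The sterol element TCACNCCAC, the E-box CAGCTG and the CArG box of muscle genes were searched on both strands and were found in none of the 9 genes' windows. Among all windows they occurred in 1.05%, 13% and 1.47%. The GC box GGGCGG occurred in 32.7% of all windows, and before 8 of the 9 genes, all but Elovl5. No motif searched was thus present before all of Elovl5, Hsd17b12 and Hacd2. These are matches of letters in a fixed window, not measured binding.

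In the GENCODE annotation of build GRCm38, Hacd1 spans chr2:13850282-14056135 and Tecr spans chr8:83571698-83607971, both on the minus strand. Elovl5 spans chr9:77917364-77984519 on the plus strand, Hsd17b12 spans chr2:94032689-94157964 on the minus strand and Hacd2 spans chr16:35022428-35109177 on the plus strand. Hacd3 lies at chr9:64986983-65021693, Hacd4 at chr4:88396144-88438928, Elovl1 at chr4:118428093-118432953 and Elovl7 at chr13:108214404-108285683. Exons of Elovl1 overlap those of Cdc20, exons of Hacd2 those of Gm21691, and exons of Hacd4 those of Focad. Whether the authors' counting used strand is not given, so the values of these 3 genes are uncertain to that extent.

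The last enzyme of the cycle, Tecr, and its muscle dehydratase, Hacd1, varied moderately between animals. Tecr ranged from 7.29 to 8.74 with a median of 8.08, and its mean was 8.08 ± 0.28 (SD, n = 92). Hacd1 ranged from 4.77 to 5.97 with a median of 5.31, and its mean was 5.33 ± 0.23 (SD, n = 92). Across animals the highest value was 2.74 times the lowest for Tecr and 2.29 times for Hacd1.

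The other dehydratases differed widely in spread. Hacd3 ranged from 3.34 to 4.04 with a median of 3.66 (3.65 ± 0.15, SD, n = 92). Hacd4 ranged from 0.38 to 3.17 with a median of 1.78 (1.77 ± 0.44, SD, n = 92). Hacd2 ranged from -0.40 to 4.26 with a median of 1.87 (1.83 ± 0.81, SD, n = 92). Hacd3 was thus nearly constant, with 1.62 times between its extremes, while Hacd2 spanned 25.3 times and a single animal fell below 0.

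Of the condensing enzymes, Elovl5 and Elovl1 spread alike. Elovl5 ranged from 2.84 to 4.71 with a median of 3.55 (3.55 ± 0.27, SD, n = 92). Elovl1 ranged from 1.62 to 2.93 with a median of 2.32 (2.29 ± 0.27, SD, n = 92). Elovl7 reached the low end of the table, from -3.30 to 1.82 with a median of 0.08 (-0.03 ± 0.996, SD, n = 92), and 44 of 92 animals were below 0. Hsd17b12, the sole ketoacyl-CoA reductase of the set, ranged from 2.31 to 5.39 with a median of 2.98 (3.06 ± 0.48, SD, n = 92), and its distribution had a long upper tail led by animals at 5.39 and 4.71.

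**Figure D1:**
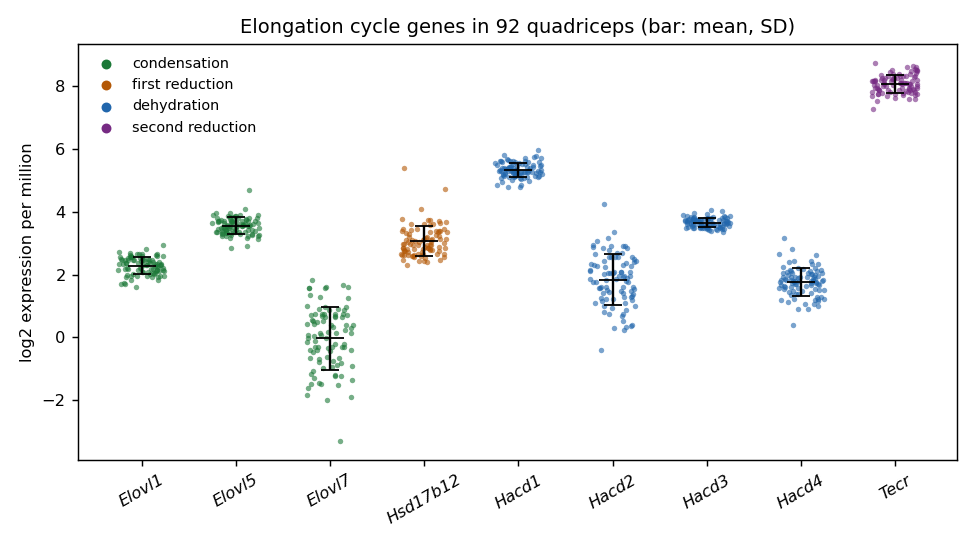
Level of each gene in each of the 92 animals, on the deposited log2 per-million scale, coloured by the reaction it carries out in the cycle. Bars give the mean and SD; Elovl7 (SD 0.996) and Hacd2 (SD 0.81) have the widest scatter and Hacd3 (SD 0.15) the narrowest.

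Levels of different genes were compared per kilobase of merged exon length. The sources used here do not say whether the deposited per-million values already account for transcript length, and if they do, no such division applies. The order of the mean log2 levels per kilobase was Tecr (6.94), Hacd1 (4.25), Hacd3 (2.22), Hsd17b12 (1.79), Elovl5 (1.73), Elovl1 (0.84), Hacd2 (-0.08), Hacd4 (-0.99) and Elovl7 (-2.03). Tecr exceeded Hacd1 by 2.69 ± 0.37 (SD of the difference within animals, log2 per kilobase) and Hacd1 exceeded Hacd3 by 2.03 ± 0.24, each in 92 of 92 animals. Neighbours within 1 SD of their difference were Hacd3 and Hsd17b12, Hsd17b12 and Elovl5, Hacd2 and Hacd4, and Hacd4 and Elovl7. Hsd17b12 was above Elovl5 in 51 of 92 animals, so Hsd17b12 and Elovl5 were not ordered. Hacd3 was above Hsd17b12 in 78 of 92, Hacd2 above Hacd4 in 81 and Hacd4 above Elovl7 in 77. With coding length in place of exon length, Elovl5 moved above Hacd3 and Hsd17b12, and the other genes kept their order. With no division by length only Elovl5 (3.55) and Hsd17b12 (3.06) changed places.

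Hacd1 supplied most of the dehydratase transcripts in every animal. Its share of the summed HACD levels per kilobase had a median of 75.8% and ranged from 63.4% to 82.9%, and it was the highest of the 4 in 92 of 92 animals. Hacd3 had a median share of 18.3%, Hacd2 of 3.82% and Hacd4 of 2.03%. The share of Hacd2 ranged from 0.865% to 16.955%. Per coding length the median share of Hacd1 was 72.1%, with a range of 55.4% to 81.3%. With no division by length the median shares were 66.96% for Hacd1 (51.7% to 76.6%), 20.8% for Hacd3, 6.10% for Hacd2 and 5.71% for Hacd4. Among the 3 elongases of the set, Elovl5 had a median share of 61.3%, Elovl1 of 33.98% and Elovl7 of 4.97%, and Elovl5 was the highest in 91 animals. Undivided, these median shares were 65.8%, 28.2% and 5.998%, and Elovl5 was the highest in all 92.

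Spread was also set against that of other genes of similar level, using a lowess trend of SD on mean over all 13441 genes, whose median SD was 0.3185. Hacd3 had 0.548 times the SD of the trend and was more variable than 1.28% of genes by this measure. Elovl1 was also on the steady side, at 0.708 times the trend. Hacd1, Hacd4 and Elovl5 lay near the trend, at 1.06, 1.01 and 0.948 times. Tecr, at 1.39 times, exceeded 81.03% of genes despite its high level. Hsd17b12 and Elovl7 had 1.53 and 1.54 times the trend SD, and Hacd2 had 1.88 times, above 92.6% of genes. Relative to genes of similar level, Hacd2 was thus the most variable of the 9 and Hacd3 the least.

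Of the 36 pairs of cycle genes 3 covaried past the threshold, all among Elovl5, Hsd17b12 and Hacd2. For each gene of the cycle, limma regressed the log2 level of all other genes on its standardised level, and slopes are given in log2 units for each SD of the predictor. A gene passed at a Benjamini-Hochberg adjusted p under 0.05 over the 13440 other genes, and a pair was called where each gene passed in the fit on the other. Of the 36 pairs, 24 had a positive Pearson's r, the median r was 0.087 and 28 had an absolute r under 0.2. With Elovl5 as predictor 4.06% of genes passed and 2 of the 8 other cycle genes did. With Hsd17b12 it was 6.26% of genes and again 2 of 8, and with Hacd2 it was 1.36% and 2 of 8. Bulk RNA cannot tell fewer cells of a type from less RNA in each cell, which applies to every relation below.

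Elovl5 and Hsd17b12 had the closest relation of the cycle. Pearson's r was 0.658 and Spearman's rho was 0.555 over 92 animals, each with a two-sided permutation p of 1e-05, the smallest that 100000 resamples can give, and the larger limma adjusted p of the 2 directions was 5.26e-09. Within the 5 title-number runs r lay between 0.413 and 0.836, and leaving out the 2 animals of most extreme Elovl5 gave 0.542. Hsd17b12 and Hacd2 gave r = 0.599 and rho = 0.560 (permutation p = 1e-05 for each, adjusted p = 6.71e-08), with 0.485 to 0.825 within runs and 0.527 without the 2 farthest animals. Both relations held within every run.

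Elovl5 and Hacd2 were less closely related. For this pair r was 0.410 (permutation p = 7e-05) and rho was 0.346 (permutation p = 0.00068), with a larger adjusted p of 0.00516 and values of 0.228 to 0.846 within runs. Without the lipogenic-high animal r was 0.315 and the adjusted p was 0.177, so this call rested on that animal. Without the 2 farthest animals they were 0.287 and 0.225. The other 2 pairs passed without it, at r = 0.556 for Elovl5 with Hsd17b12 (adjusted p = 1.37e-05) and r = 0.536 for Hsd17b12 with Hacd2 (adjusted p = 1.09e-05).

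**Figure D2:**
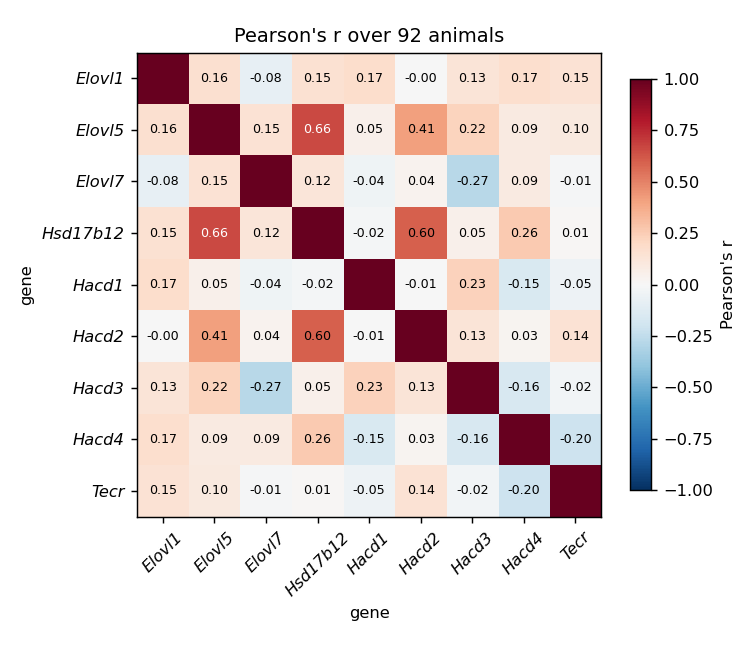
Pearson's r over 92 animals for each pair of cycle genes, as coloured cells with the value printed, with 1 on the diagonal. The 3 called pairs, at 0.658, 0.599 and 0.410, join Elovl5, Hsd17b12 and Hacd2, while Hacd1 and Tecr have r = -0.05.

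The muscle dehydratase Hacd1 and the reductase Tecr, which act next to each other in the cycle, showed no relation past the threshold. Their r was -0.050 (permutation p = 0.633) and rho was -0.0087, with values from -0.373 to 0.12 within runs. Hacd1 and Hacd3 had r = 0.230 (permutation p = 0.0286, adjusted p = 0.241) and Hacd4 and Tecr had r = -0.204 (permutation p = 0.0516, adjusted p = 0.227), neither of which passed. The most negative pair was Elovl7 with Hacd3 at r = -0.275 (permutation p = 0.00831), which did not pass either, with an adjusted p of 0.324.

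Elovl5, Hsd17b12 and Hacd2 rose with genes of fatty acid synthesis. Elovl6, the elongase that extends palmitate, rose by 1.03 log2 units per SD of Hsd17b12 (SE 0.083, adjusted p = 3.14e-18), by 0.78 per SD of Elovl5 and by 0.73 per SD of Hacd2. Elovl6 was the only gene of a list of other elongases found in the table. Of 8 genes that supply malonyl-CoA or build fatty acids, Acly, Acaca and Fasn rose with each of the 3 genes, Acss2 rose with Hsd17b12 in addition, and none fell. Fatty acid synthase, Fasn, rose by 1.06 log2 units per SD of Hsd17b12, 0.79 per SD of Elovl5 and 0.77 per SD of Hacd2. The median slope of the 8 was 0.0731 for Hsd17b12, 0.052 for Elovl5 and 0.0433 for Hacd2, against -0.0042, -0.0015 and -0.00096 over all genes, so most of the rise lay in these members. The desaturase Scd1 also rose with all 3, by 0.81, 0.64 and 0.67 in the same order. Over all 7 lipid lists 12 of 53 genes rose with Hsd17b12, 9 with Elovl5 and 6 with Hacd2, and none fell. The shares of all genes that rose were 5.22%, 3.66% and 1.29% in the same order, each below the share of the 53. These differences in share were not tested. Without the lipogenic-high animal Elovl6, Acly, Acaca, Fasn and Scd1 passed with each of the 3 genes, and Acss2 did not pass with Hsd17b12 (adjusted p = 0.172). With the 9 marker scores as covariates no gene passed with Elovl5 or Hacd2, so all of these calls with them ended. Only a few genes passed with Elovl5 or Hacd2 once the adipocyte score was a covariate, as counted below.

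With Hsd17b12 as predictor 842 genes passed, of which 702 rose (5.22% of genes) and 140 fell (1.04%). Its leading partners were Tkt, an enzyme of the pentose phosphate pathway that yields NADPH (r = 0.831, rho = 0.690, adjusted p = 1.88e-21), Sfxn1, a mitochondrial serine carrier (r = 0.825), and Slc25a1, the mitochondrial citrate carrier (r = 0.824). Each of these had r of at least 0.606 within every run and at least 0.737 without the 2 farthest animals. The leading falling genes were Epm2a, the glycogen phosphatase laforin (r = -0.469), Vdac1, a channel of the outer mitochondrial membrane (r = -0.440), and Pip5k1a, a phosphoinositide kinase (r = -0.439). Epm2a was positive in 1 run, at 0.261.

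With Elovl5 as predictor 546 genes passed, 492 rising (3.66% of genes) and 54 falling (0.402%). After Hsd17b12, the leading genes were Rbp4, the carrier of retinol (r = 0.652, rho = 0.518, adjusted p = 5.26e-09), and Carhsp1, an RNA-binding protein (r = 0.648, rho = 0.564). Trdn, the triadin of the calcium release complex, fell by 0.095 log2 units per SD of Elovl5 (r = -0.435, adjusted p = 0.00139). Tspyl1 and Kansl2 fell by about as little, with r = -0.430 and r = -0.421.

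With Hacd2 as predictor nearly all genes that passed rose, 1.29% of genes against 0.067% that fell. The leading genes were Fabp4, the fatty acid-binding protein of adipocytes (r = 0.705, rho = 0.694, adjusted p = 1.77e-11), Klhdc7a (r = 0.692) and Slc36a2, an amino acid transporter (r = 0.687). Of the 9 falling genes, Nup88, a nuclear pore protein, had r = -0.414, Cbx6, a Polycomb protein, had r = -0.394 and Tcf4, a transcription factor, had r = -0.370. Tcf4 did not pass without the 2 farthest animals (adjusted p = 0.210) or without the lipogenic-high animal (adjusted p = 0.0758). With the title-number run as a covariate neither Cbx6 (adjusted p = 0.0515) nor Tcf4 (adjusted p = 0.0809) passed.

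Adipocyte markers moved with the same 3 genes. Of 10 adipocyte genes, 9 rose with Elovl5, 9 with Hacd2 and 8 with Hsd17b12, none fell, and Car3 passed with none of them. The adiponectin gene Adipoq rose by 0.54 log2 units per SD of Elovl5, 0.65 per SD of Hacd2 and 0.60 per SD of Hsd17b12, and the lipid droplet protein Plin1 by 0.67, 0.78 and 0.80. Median slopes of the list were 0.474, 0.584 and 0.517, and r with the adipocyte score was 0.620, 0.710 and 0.715. Without the lipogenic-high animal 8, 9 and 8 of the 10 rose. After adjustment for the first 3 principal components of the whole table the 3 pairs were called, with partial r of 0.608 for Elovl5 with Hsd17b12, 0.614 for Hsd17b12 with Hacd2 and 0.4005 for Elovl5 with Hacd2 (adjusted p = 1.06e-06, 3.57e-08 and 0.00871). With the adipocyte score as a covariate, limma called 0 of the 36 pairs, 6 being at an unadjusted p under 0.05. The partial r was then 0.392 for Elovl5 with Hsd17b12 (adjusted p = 0.0837), 0.185 for Hsd17b12 with Hacd2 (adjusted p = 0.679) and -0.0535 for Elovl5 with Hacd2 (adjusted p = 0.947). Under that covariate the genes that passed numbered 5 for Elovl5, 1 for Hacd2 and 582 for Hsd17b12. None of the 6 leading genes of Elovl5 passed then, Rbp4 having an adjusted p of 0.163 and Carhsp1 of 0.117, and none of the 6 of Hacd2, Fabp4 having 0.607, Klhdc7a 0.808 and Slc36a2 0.643. Fabp4 is itself part of that score, so its loss there carries little information. All 6 leading genes of Hsd17b12 passed, and with the 9 marker scores its 3 leading rising genes did.

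Macrophage and fibroblast markers moved with Hsd17b12 too. All 10 macrophage genes rose with it, the complement gene C1qb by 0.35 log2 units per SD (r = 0.533, rho = 0.586), and 4 of 8 fibroblast genes rose. After adjustment for 3 principal components, only 2 of the macrophage genes, C1qa and C1qb, and 1 fibroblast gene rose with it. With Elovl5, 3 of 10 macrophage and 3 of 8 fibroblast genes rose, and with Hacd2 none of either list passed in limma. Over all genes 5.22% rose with Hsd17b12, 3.66% with Elovl5 and 1.29% with Hacd2. For Hacd2, none in lists of this size is near that share. The part of these cell types in the relations among the 3 cycle genes was not tested beyond the covariate fits.

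**Figure D3:**
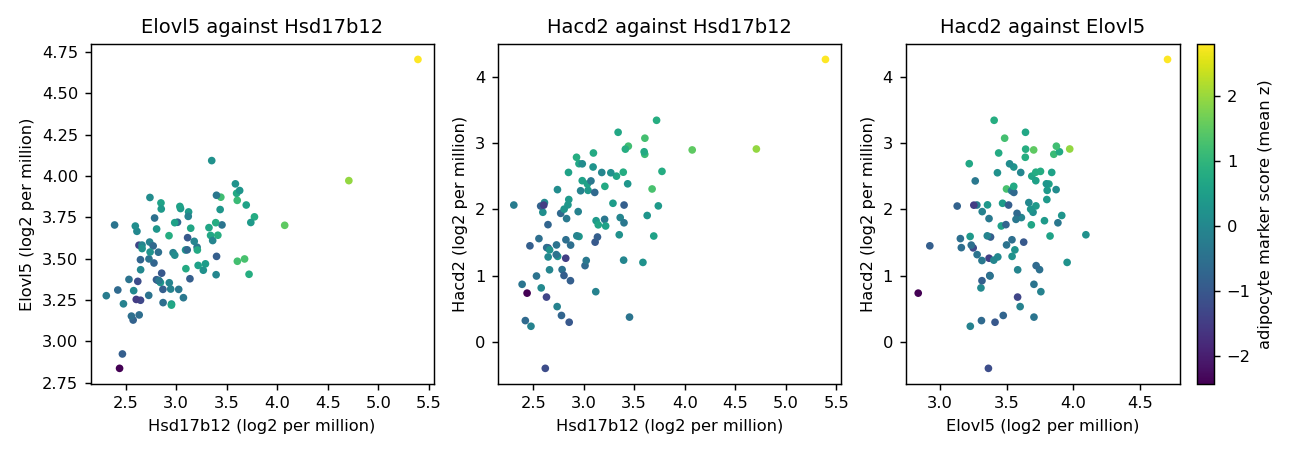
Scatter of Elovl5, Hsd17b12 and Hacd2 against each other in 92 animals, on the deposited log2 scale, each point coloured by the animal's adipocyte marker score (mean of standardised genes). The animal at 5.39 for Hsd17b12, 4.71 for Elovl5 and 4.26 for Hacd2 lies at the top right of each panel and has the highest score, and animals of low score lie towards the lower left.

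Hacd1 moved with a small set of genes, and most closely with Sypl2. Of 13440 genes, 334 passed (2.49%), with 1.16% of genes rising and 1.32% falling. Sypl2, the mitsugumin of the triad junction where the transverse tubule meets the calcium store, ranged about its mean of 8.85 with an SD of 0.165. It rose by 0.12 log2 units per SD of Hacd1 (SE 0.0123, adjusted p = 4.23e-12), with r = 0.733, rho = 0.692 and r = 0.488 to 0.897 within the 5 runs. The next gene, Rilp, a lysosomal adaptor of Rab7, had r = 0.525 (rho = 0.50, adjusted p = 0.000686). Sypl2 passed with the 9 marker scores as covariates (adjusted p = 1.99e-05), although only 7 genes in all did. Adjusting for 3 principal components left 22 genes. In 1 run Rilp had r = -0.00082.

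The other leading partners of Hacd1 had r between 0.476 and 0.504. They were Itgb1bp2, the muscle chaperone melusin, Tspan31, a tetraspanin, Casq1, the calsequestrin of fast fibres, Hras, a small GTPase, Pfn1, the actin-binding profilin, Fbxl22, an F-box protein, Pdia6, a disulfide isomerase, and Actc1, the cardiac alpha-actin. Actc1 had the steepest slope, at 0.64 log2 units per SD (SE 0.121, adjusted p = 0.000991), and Tspan31 the shallowest, at 0.076. All 8 were positive within every run, although Itgb1bp2 came down to 0.0346 in 1 of them.

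Among the genes that fell with Hacd1, Rad23b, a proteasome shuttle and DNA repair protein, had r = -0.504 (rho = -0.447, adjusted p = 0.000803). The imprinted transcript Peg13 had r = -0.495 and Rps6ka5, the stress kinase MSK1, had r = -0.493, falling by 0.21 log2 units per SD. Txlnb, a taxilin of muscle, and Pitpnb, a phosphatidylinositol transfer protein, followed at r = -0.487 and r = -0.473. Scaf8, Rcor3, Aebp2, Map4 and Mycbp2 had r between -0.461 and -0.428. All 10 were negative in every run, Rad23b by as little as -0.0135. Of the 20 named partners of Hacd1, 18 did not pass with the 9 marker scores as covariates, all but Sypl2 and Rps6ka5. Casq1 is itself part of the fast fibre score. Adjusted for 3 principal components 12 of the 20 did not pass, and those that passed were Sypl2, Tspan31, Casq1, Hras, Actc1, Rad23b, Peg13 and Rps6ka5.

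Among fast glycolytic fibre genes, 4 of 13 rose with Hacd1 and none fell. Casq1 rose by 0.13 log2 units per SD (r = 0.495, adjusted p = 0.000803), the essential myosin light chain Myl1 by 0.091 (r = 0.460), parvalbumin, Pvalb, by 0.0998 (r = 0.417) and the regulatory light chain Mylpf by 0.091 (r = 0.378). The median slope of the list was 0.0364 against -0.00095 over all genes, and r with the fast fibre score was 0.302. With the fast and slow fibre scores as covariates 573 genes passed, 223 of them shared with the 334. No slow fibre gene of 9 passed, and the myosin heavy chain Myh4 did not pass either. Myogenin, Myog, the only called gene of the stem and regenerating list, rose by 0.26 (adjusted p = 0.0417).

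Of 53 genes in the 7 lipid lists, 0 passed with Hacd1 in limma, which is near the 2.49% of all genes that did. Besides Elovl6 these were 7 desaturases, 8 genes of malonyl-CoA and fatty acid synthesis, 8 acyl-CoA synthetases, 5 ceramide synthases, 13 genes of peroxisomal very long-chain oxidation and 11 sterol and lipogenic regulators. The slopes were negative for 7 of the 8 synthesis genes and 10 of the 11 regulators, and r with the list's score was -0.251 and -0.293. The adipocyte, macrophage, endothelial and fibroblast lists, of 8 to 10 genes each, gave no called gene, and a list of that size holds less than 1 call at a share of 2.49%. Without the Tecr-low animal 238 genes passed, 175 of them shared with the 334, all 20 named partners passed, fast fibre genes numbered 6 of 13 and Myog had an adjusted p of 0.191. Without the 2 animals farthest from the median, at 4.77 and 5.97, 146 genes passed.

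Tecr had 950 partners (7.07% of genes), with 4.9% of genes rising and 2.17% falling. Mrln, the micropeptide myoregulin that inhibits the calcium pump of the sarcoplasmic reticulum, rose by 0.25 log2 units per SD of Tecr (SE 0.0327, adjusted p = 2.33e-07), with r = 0.616, rho = 0.582 and 0.316 to 0.752 within runs. Themis3 (r = 0.614), Sra1, a coactivator of nuclear receptors (r = 0.604), Slc30a2, a zinc transporter (r = 0.590), and Ybx3, a cold-shock RNA-binding protein (r = 0.589), came next. Mettl21c, a lysine methyltransferase of muscle, rose by 0.46 per SD (r = 0.588), and Mstn, the growth inhibitor myostatin, by 0.26 per SD (r = 0.581). Vps72, Rab12 and Ykt6, of chromatin remodelling and membrane traffic, completed the 10 with r from 0.564 to 0.586. All 10 were positive in every run. With the 9 marker scores as covariates 172 genes passed, among them 19 of the 20 named partners of Tecr. Mrln and Grb10 each had an adjusted p of 0.00357 in that fit.

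Of the genes that fell with Tecr the closest was Grb10. Grb10, an adaptor that restrains insulin receptor signalling, fell by 0.25 log2 units per SD of Tecr (SE 0.0366, adjusted p = 1.22e-06), with r = -0.580, rho = -0.507 and -0.829 to -0.403 within runs. The imprinted zinc finger gene Peg3 fell by 0.31 per SD (r = -0.480), but its r was 0.332 in 1 run. Prkaa1, a catalytic subunit of the AMP-activated kinase, had r = -0.467, and Gpam, the mitochondrial glycerol-phosphate acyltransferase, had r = -0.483. Spats2l, Ankrd52, Sdc2, Ampd3, Cnnm4 and Eya3 had r between -0.532 and -0.477. Prkaa1 did not pass without the 2 farthest animals (adjusted p = 0.0633), with the marker scores (0.203) or with 3 principal components (0.314), and Eya3 did not pass with the last of these (0.0988).

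**Figure D4:**
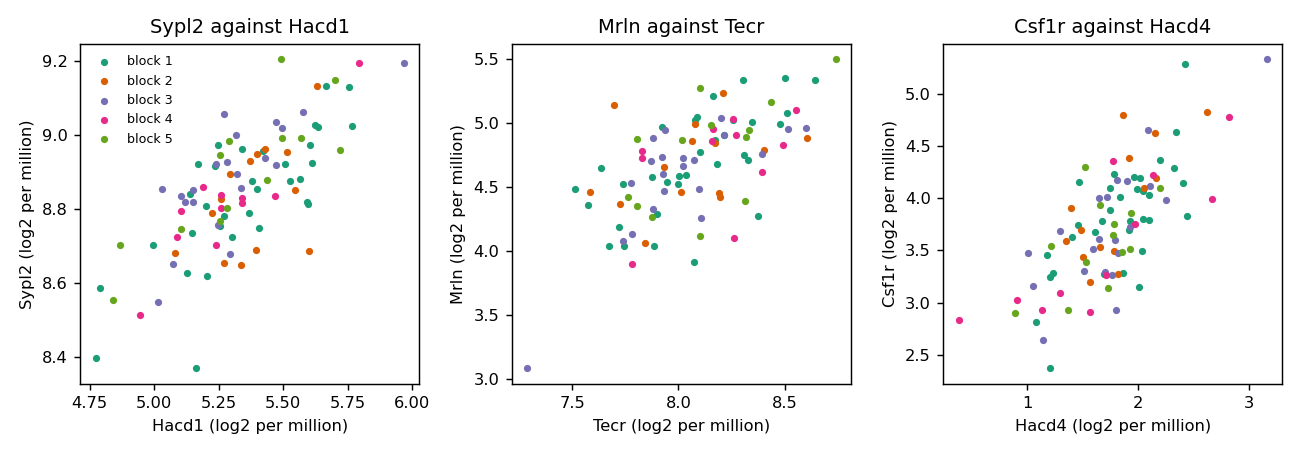
The closest partner of Hacd1 (Sypl2), of Tecr (Mrln) and of Hacd4 (Csf1r) plotted against it in 92 animals, on the deposited log2 scale, with the 5 title-number runs in different colours. The relations are positive in each colour, and the Tecr-low animal is at the lower left for Mrln and at the upper right in the panels of Hacd1 and Hacd4.

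In the lists, Tecr moved with fast fibre genes. Of 13, 6 rose and none fell, among them the troponins Tnnc2 (0.097 log2 units per SD, r = 0.485), Tnnt3 (0.058, r = 0.405) and Tnni2 (0.058, r = 0.354) and the light chain Mylpf (0.086, r = 0.356). The list's median slope was 0.0585 against -0.0012 over all genes. Of 16 oxidative phosphorylation genes, the cytochrome oxidase subunits Cox7a1 (r = 0.413) and Cox5a (r = 0.385) rose. Over all genes 4.9% rose with Tecr and 2.17% fell, so 2 of 16 rising is not far from the background. Of 8 stem and regenerating genes 3 fell, namely Myog (-0.26 log2 units per SD), the perinatal myosin Myh8 (-0.57) and the satellite cell factor Pax7 (-0.15). The fibroblast gene Lum fell by 0.14.

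Of 53 genes in the 7 lipid lists, 4 rose with Tecr (7.55%) and none fell, against 4.9% of all genes rising and 7.07% called, so the share was near the background. The muscle ceramide synthase Cers1 rose with Tecr by 0.14 log2 units per SD (r = 0.443, adjusted p = 0.00101). The desaturase Scd2, the acyl-CoA synthetase Acsl3 and the sterol sensor Insig1 rose by 0.28, 0.18 and 0.16. No gene of malonyl-CoA and fatty acid synthesis or of peroxisomal oxidation passed.

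These counts depended in part on the Tecr-low animal. Without it 679 genes passed, 598 of them shared with the 950, and all 20 named partners passed. Fast fibre genes that rose then numbered 2 of 13, Mylpf and Tnnc2, and none of the stem and regenerating genes fell (adjusted p = 0.152 for Myog, 0.0628 for Myh8 and 0.121 for Pax7). Cers1, Cox7a1 and Cox5a passed without it. When 3 principal components were adjusted for, 2.0% of genes passed, among them Cers1 and Insig1 but no gene of the fast fibre, oxidative phosphorylation or stem and regenerating lists. Without the 2 animals farthest from the median, at 7.29 and 8.74, 351 genes passed.

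Hacd1 and Tecr differed in how other genes moved with them. In a model with both as predictors, the slopes of 315 of 13439 genes differed (2.34%). Sypl2 had a slope of 0.12 log2 units per SD of Hacd1 and 0.021 per SD of Tecr, a difference of 0.10 (SE 0.0167, adjusted p = 4.93e-05). Sypl2 and the other partners named in these contrasts were chosen for their correlation with 1 of the predictors in the same animals, so their differences are a description. Mstn had -0.13 on Hacd1 and 0.25 on Tecr (difference -0.38, SE 0.0491, adjusted p = 1.28e-07), and Grb10 had 0.066 and -0.25 (adjusted p = 1.89e-05). Mrln had -0.0022 and 0.25 (adjusted p = 0.000255), and Actc1 had 0.62 and -0.28 (adjusted p = 0.00024).

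Without the Tecr-low animal only 50 genes differed, 48 of them among the 315. Sypl2 (adjusted p = 0.00217), Mstn (0.000201), Grb10 (0.00571), Actc1 (0.00377), Peg3 (0.0393) and Mrln (0.0462) passed without it. Of the 40 named partners of Hacd1 and Tecr, 28 differed with that animal and 14 of these without it. Among the 11 that were partners of Hacd1, only Sypl2, Actc1 and Rps6ka5 passed without it, and among the 17 partners of Tecr 11 did. Adjusted for 3 principal components 168 genes differed, and for the 9 marker scores 36. Of the stem and regenerating list, Myog and Ncam1 differed with that animal and no gene did without it. None of 13 fast fibre genes differed in either fit.

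Slopes on Hacd1 were also compared with those on each of the other dehydratases. Between Hacd1 and Hacd2, 400 of 13439 genes differed in slope (2.98%), among them 8 of 10 adipocyte genes, all higher on Hacd2. Fabp4 had -0.041 per SD of Hacd1 and 0.38 per SD of Hacd2 (difference -0.42, SE 0.0554, adjusted p = 3.31e-08). Sypl2 had 0.12 and -0.0011 (adjusted p = 2.43e-07). Without the lipogenic-high animal 298 genes differed, and 186 did after adjustment for 3 principal components. With the 9 marker scores, which include the adipocyte score, limma called 0 differences (924 at an unadjusted p under 0.05).

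Between Hacd1 and Hacd4, 838 genes differed (6.24%). Of the fast fibre list, 10 of 13 were higher on Hacd1, while 6 of 10 macrophage and 5 of 8 fibroblast genes were higher on Hacd4. The macrophage receptor gene Csf1r had 0.046 on Hacd1 and 0.42 on Hacd4 (difference -0.37, SE 0.0528, adjusted p = 1.98e-06). Adjustment for 3 principal components left 1 gene that differed, and for the 9 marker scores 103. Each of the list counts was the same without the Tecr-low animal.

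Between Hacd1 and Hacd3, 83 genes differed (0.618%). Casq1 and Myl1 were higher on Hacd1, by 0.17 (adjusted p = 0.00977) and 0.14 (adjusted p = 0.00616). Sypl2 again had its slope on Hacd1, at 0.13 against -0.02 on Hacd3 (adjusted p = 6.55e-07). With the principal components 34 genes differed, and with the marker scores 5.

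Hacd4 rose with macrophage and fibroblast markers. Of 13440 genes, 1995 passed (14.8%), 1169 rising (8.7%) and 826 falling (6.15%). Every one of these calls ended after adjustment for 3 principal components: limma called 0 genes, with 1278 at an unadjusted p under 0.05, and Csf1r had an adjusted p of 0.104. With the 9 marker scores 199 genes passed, and of the 6 named here and below Hikeshi and Dcun1d2 did not. Csf1r rose by 0.41 log2 units per SD of Hacd4 (SE 0.0401, adjusted p = 6.91e-13), with r = 0.730, rho = 0.691 and 0.56 to 0.838 within runs. Cybb, the phagocyte oxidase, had r = 0.700, and Antxr1, an anthrax toxin receptor, had r = 0.659. All 10 macrophage genes and all 8 fibroblast genes rose, with median slopes of 0.35 and 0.237 against -0.0036 over all genes. The collagen gene Col1a2 rose by 0.33 (r = 0.599).

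Fast fibre transcripts fell with Hacd4. Of 13 fast fibre genes 9 fell, including Actn3, the actinin of fast fibres, by 0.11 log2 units per SD (r = -0.451) and the fast troponin Tnni2 by 0.073 (r = -0.447). The alpha-kinase Alpk2 had r = -0.603, and Hikeshi and Dcun1d2 had r = -0.530 and r = -0.528. Of the 53 lipid genes 3 rose with Hacd4 and 1 fell (7.55% called), a share below that of all genes. The ceramide synthases Cers2 and Cers6 rose by 0.063 and 0.25, the desaturase Fads1 rose by 0.18 (r = 0.450) and the malic enzyme Me1 fell by 0.10. Without the Tecr-low animal 1332 genes passed, with 9 of 10 macrophage genes and 8 of 8 fibroblast genes rising and 4 of 13 fast fibre genes falling. Cers2 and Cers6 did not pass without it (adjusted p = 0.0832 and 0.0837). With the macrophage score as a covariate 505 genes passed, among them Csf1r (adjusted p = 5.99e-05), itself part of that score. Without the 2 farthest animals, at 0.38 and 3.17, there were 1125.

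Hacd3, the steadiest gene of the cycle, had 315 partners (2.34%), with 1.44% of genes rising and 0.908% falling. Srxn1, the sulfiredoxin induced by oxidants, rose by 0.31 log2 units per SD of Hacd3 (SE 0.0497, r = 0.541, rho = 0.509, adjusted p = 0.000131). The imprinted gene Peg10 had r = 0.540 and Ifngr1, a chain of the interferon-gamma receptor, had r = 0.536. Smpd1, the acid sphingomyelinase that releases ceramide in lysosomes, fell by 0.098 (r = -0.542, rho = -0.534, -0.703 to -0.424 within runs, adjusted p = 0.000131). Trim68 and Mylip, a ubiquitin ligase for the LDL receptor, had r = -0.457 and r = -0.442.

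Of 10 endothelial genes 3 fell with Hacd3, the VEGF receptor Kdr by 0.18 (r = -0.425), Tie1 by 0.091 and Emcn by 0.13. Of the 53 lipid genes 1 fell and 1 rose (3.77% called), near the share of all genes: Cers1 fell by 0.11 and Cers6 rose by 0.26. Without the Tecr-low animal, which ranked 2 from the top in Hacd3, 145 genes passed. Kdr alone of the endothelial genes then passed (adjusted p = 0.0372), and Cers1 and Cers6 did not (adjusted p = 0.0773 and 0.121). The 6 named partners passed without that animal. Without the 2 animals with the highest Hacd3, at 4.02 and 4.04, 52 genes passed. The covariate fits left 5 genes with 3 principal components, Peg10 and Smpd1 among them, 94 with the 9 marker scores and 166 with the title-number run.

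Elovl1, the elongase of very long saturated chains, had 1226 partners (9.12%), 518 rising (3.85%) and 708 falling (5.27%). The rising genes were led by Scpep1, a serine carboxypeptidase (r = 0.522, rho = 0.508, adjusted p = 0.000529), Prelid1, a mitochondrial lipid transfer protein (r = 0.513), and Ifitm2, an interferon-induced membrane protein (r = 0.505). The falling genes were led by Crbn, the cereblon ubiquitin ligase adaptor (r = -0.533), Gatad2b (r = -0.521) and Odr4 (r = -0.520). All 6 had the same sign in every run.

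Of the 53 lipid genes 1 rose with Elovl1 and 2 fell (5.66% called), a share below that of all genes. Of the ceramide synthases only Cers2, which uses very long acyl chains, passed with Elovl1, rising by 0.074 (r = 0.355, rho = 0.411, adjusted p = 0.0159). Cers2 was not particular to Elovl1, since it also rose with Hsd17b12 and with Hacd4. Of 10 macrophage genes 8 rose, for example Cd68 by 0.34 (r = 0.420), and of 8 fibroblast genes 3 rose, all collagens. Myh4 fell by 0.11 (r = -0.463), the only fast fibre gene of 13 to pass. Of 8 fatty acid synthesis genes only the malic enzyme Me1 passed with Elovl1, falling by 0.093, and of 11 sterol and lipogenic regulators the liver X receptor gene Nr1h2, falling by 0.066. With the 9 marker scores as covariates 28 genes passed, of the 6 leading genes Crbn and Gatad2b. After adjustment for 3 principal components limma called 0 genes (766 at an unadjusted p under 0.05), so the calls of all 6 leading genes, of Cers2 and of the marker genes ended.

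Elovl7, near the limit of the table, had no partner: limma called 0 of 13440 genes (0%), with 1458 (10.8%) at an unadjusted p under 0.05. On the log2(value + 1) scale 1 gene passed, and without the 2 lowest animals, at -3.30 and -1.98, 1 gene passed. Its relations are thus not resolved at this level.

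**Figure D5:**
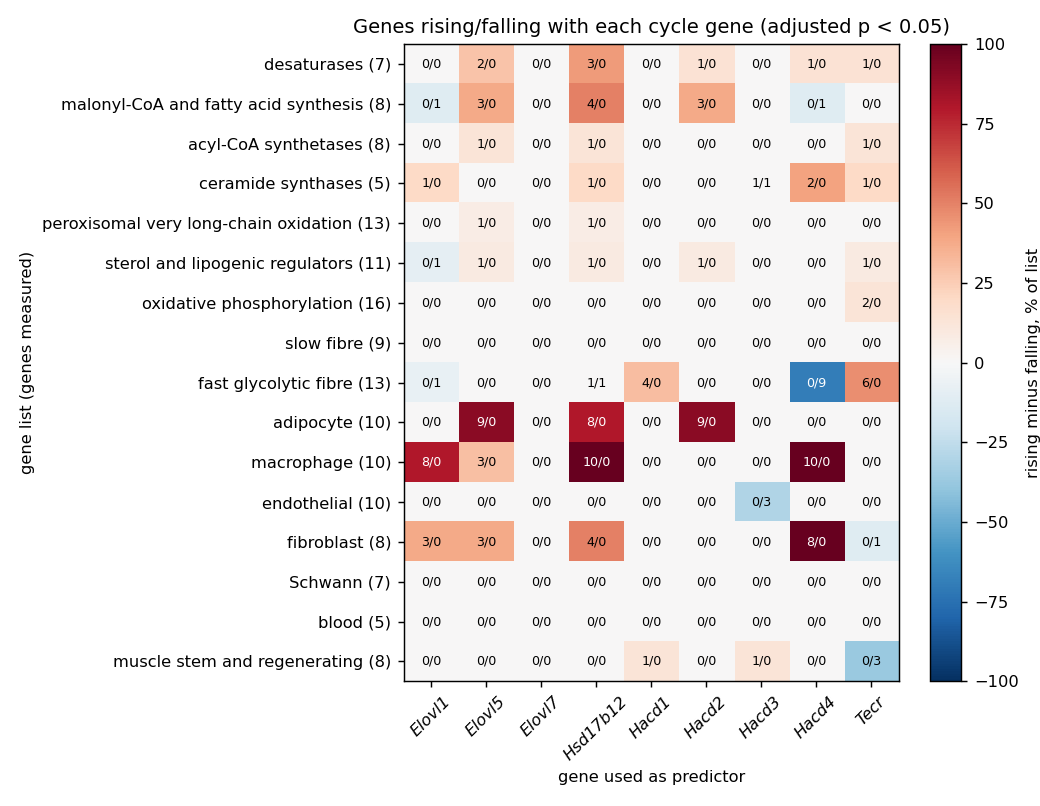
Number of genes rising and falling (printed as rising/falling) with each cycle gene at an adjusted p under 0.05, for 16 gene lists with the number measured in parentheses; colour gives rising minus falling as a percentage of the list. Adipocyte genes rise with Elovl5, Hsd17b12 and Hacd2, macrophage genes with Elovl1, Hsd17b12 and Hacd4, and fast fibre genes rise with Hacd1 and Tecr and fall with Hacd4; without the Tecr-low animal the fast fibre counts are 6 rising for Hacd1, 2 rising for Tecr and 4 falling for Hacd4, of 13.

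Slow fibre, Schwann and blood genes passed in limma with none of the 9 cycle genes. Once adjusted for 3 principal components, the calsequestrin gene Casq2 of the slow fibre list fell with Elovl5 and Hsd17b12. Apart from the 4 fitted contrasts with Hacd1, differences between cycle genes in these counts were not tested.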

How the data were processed

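Messenger RNA of 92 quadriceps samples was sequenced from libraries prepared with 500 ng of RNA, per the labels' protocols. The deposited table holds log2 per-million values, a unit read from the values: linear sums per sample were 898071 to 1140761. The submitters' processing notes list bcl2fastq, MultiQC, kallisto 0.50.1, edgeR and build mm10, with no role or order. Total counts per sample are not given in the sources used here. Of 13456 lines 15 repeats were removed, which left 13441 genes.

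Each cycle gene's standardised log2 level was the predictor in limma 3.58.1 (R 4.3.3, trended empirical Bayes), with Benjamini-Hochberg adjustment over all genes. Slopes on Hacd1 and on another gene were compared in joint fits. Pearson's r and Spearman's rho carry two-sided permutation p-values (scipy 1.17.1). The text names the 10 closest rising and falling genes for Hacd1 and Tecr and 3 each for the others, by absolute r among called genes with a mean of at least 1; from the lists it names genes that passed with Hacd1 or Tecr, at most 4 a list by size of r. List genes named for the other predictors were chosen after their values were seen. The cycle genes and the lists were chosen with earlier results of these data known. P-values measure spread between animals; relatedness and sex were not modelled. Scripts were tested on simulated data. Alternatives were title-number run, 3 principal components, 9 marker scores, log2(value + 1), a mean of at least 1, rank scores and leaving out the 2 farthest animals. Single marker scores as covariates, leaving out the 2 animals that stood apart and levels with no division by length were added after seeing the data.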

Additional observations from a re-analysis of the deposited data

How the results depend on the processing

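Counts of genes that passed moved by more than 1.5 times under the following alternatives, and the cause was not tested. With the first 3 principal components as covariates, limma called 0 genes for Elovl1 (766 at an unadjusted p under 0.05) and 0 for Hacd4 (1278), 311 for Elovl5, 420 for Hsd17b12, 22 for Hacd1, 5 for Hacd3 and 2.0% of genes for Tecr, and slope differences from Hacd1 numbered 186 for Hacd2, 34 for Hacd3, 1 for Hacd4 and 168 for Tecr. With the 9 marker scores it called 0 for Elovl5 (882 unadjusted) and 0 for Hacd2 (739), 28 for Elovl1, 53 for Hsd17b12, 7 for Hacd1, 94 for Hacd3, 199 for Hacd4 and 1.28% of genes for Tecr; differences from Hacd1 numbered 0 for Hacd2 (924 unadjusted), 5 for Hacd3, 103 for Hacd4 and 36 for Tecr, and 0 pairs were called (5 unadjusted). With the adipocyte score there were 5 genes for Elovl5, 1 for Hacd2 and 0 pairs (6 unadjusted). The relation of Elovl5 with Hacd2 changed sign, to -0.0535 with that score and -0.0452 with all 9. With both fibre scores Hacd1 had 573 genes and Tecr 1.49% of genes, and with the macrophage score Hacd4 had 505. The run of title numbers as a covariate gave 166 genes for Hacd3. Without the 2 farthest animals there were 1 for Elovl7, 146 for Hacd1, 52 for Hacd3, 1125 for Hacd4 and 2.61% of genes for Tecr. Without the Tecr-low animal there were 145 for Hacd3 and 50 differences between Hacd1 and Tecr. On the log2(value + 1) scale Elovl7 had 1. Of 76 named slopes, 36 passed with 9 scores, 43 with 3 components and 74 with the run or without the 2 farthest animals, and none changed sign. With the adipocyte score 6 of 18 passed, all with Hsd17b12, and none of the 12 with Elovl5 and Hacd2. Fabp4, among these 12, is itself part of that score. A minimum mean was not run for pairs, since Elovl7 lies below it. No depth was given, so counting error cannot be separated from variation between animals. No paired analysis was possible because all animals form 1 group.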

Other observations

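In the animal highest in Elovl5, Hsd17b12 and Hacd2, other genes of fatty acid synthesis were also the highest of 92: Elovl6 was at 6.97 on the log2 scale against a median of 1.83, Acly at 8.53 against 4.40 and Acaca at 8.44 against 4.89. Acss2 was likewise the highest, at 6.24 against 5.25. The malonyl-CoA decarboxylase Mlycd ranked 90 from the top, at 5.23 against 5.76. Hacd1 in this animal was at 5.34 against a median of 5.31 and ranked 41 from the top, and Tecr was at 8.27 against 8.08 and ranked 23.

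In the animal lowest in Tecr, Mrln was the lowest of 92, at 3.08 against a median of 4.73, and Csf1r the highest, at 5.33 against 3.74. Its endothelial score ranked 90 and its Schwann score 91 from the top. Elovl5 was at 3.51 against a median of 3.55.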
